A study of Mus musculus with 8 samples.

Results

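The haemoglobin genes Hba-a1, Hba-a2, Hbb-bs and Hbb-bt, with the erythroid haem synthesis gene Alas2, were followed as a gauge of the blood left in liver tissue. They were taken by symbol, and all 5 had a row among the 24674 rows with a symbol in the authors' gene table. The 8 libraries came from livers of female mice that were wild type in genotype. The labels give the 4 WT animals as wild type, and the 4 F2_outcross animals as wild type descended from a Khdc3-null maternal grandmother. The labels give no strain, age, litter or dam for either group and do not say that animals of a group came from separate litters, so p-values measure only the spread between these animals. Levels are in normalized reads, that is, read counts that the authors had scaled between libraries. A library held 27855142 (WT 3) to 35602558 (WT 1) reads in rows with a symbol, and 1 read was worth 0.779 to 1.04 normalized reads.

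Adult haemoglobin is a tetramer of alpha and beta chains, each holding a haem. Its mRNAs are made in erythroid precursors and persist in reticulocytes, the young red cells that have lost their nucleus, while mature red cells keep very little RNA. Adult liver makes almost no red cells, so haemoglobin mRNA in a liver extract is commonly read as coming from blood in its vessels. Alas2 encodes the erythroid enzyme of the first step of haem synthesis, and hepatocytes use its relative Alas1.

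The labels call the cells hepatocytes, but the extract held the other cells of the liver as well. Summed over 12 Kupffer cell markers (resident macrophages of the liver sinusoids), libraries held 26580.4 to 57228 normalized reads. Summed over 10 markers of sinusoidal endothelium they held 14769 to 17203, and over 8 stellate cell markers 8279 to 12924. The 12 hepatocyte genes summed to between 3674227 and 5221706 normalized reads.

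The alpha genes lie on chromosome 11 and the beta genes on chromosome 7, and the coding sequences within each pair are nearly the same. In build GRCm38, Hba-a1 (ENSMUSG00000069919.7) lies at chr11:32283511-32284465 and Hba-a2 (ENSMUSG00000069917.7) at chr11:32296489-32297298, both on the plus strand. Hbb-bs (ENSMUSG00000052305.6) lies at chr7:103826534-103828096 and Hbb-bt (ENSMUSG00000073940.3) at chr7:103812524-103813996, both on the minus strand. Alas2 (ENSMUSG00000025270.13) lies at chrX:150547375-150570638 on the plus strand. All are protein-coding. The 429 coding bases of the alpha genes differ at 1 position, C381T from Hba-a1 to Hba-a2, counted from the A of the start codon. The 444 coding bases of the beta genes also differ at 1 position, C417T from Hbb-bs to Hbb-bt. The lines below show 20 bases on each side of these positions, from GENCODE M21 transcripts of GRCm38, because they are the only coding letters by which a read can be given to one copy. The differing base is in capitals, and all 4 windows lie in exons.
Hba-a1, chr11:32284323-32284363 plus strand: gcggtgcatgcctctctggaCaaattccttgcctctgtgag
Hba-a2, chr11:32297140-32297180 plus strand: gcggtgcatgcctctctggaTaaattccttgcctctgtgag
Hbb-bs, chr7:103826672-103826712 minus strand: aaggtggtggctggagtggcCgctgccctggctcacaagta
Hbb-bt, chr7:103812663-103812703 minus strand: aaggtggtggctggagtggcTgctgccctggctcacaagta

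Of the 455 stretches of 100 bases in the Hba-a2 transcript, 74.5% were also in that of Hba-a1. Of the 529 in Hbb-bs, 62.6% were also in Hbb-bt, and none was shared between an alpha and a beta gene. How the authors' counting treated reads that match both copies is not given in the sources used here. The split within each pair is therefore uncertain. The alpha sum, the beta sum and their ratio are uncertain as well if reads that match both copies were dropped.

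The promoters of the members are shown for reference. Whether they had a part in the members' levels moving together over the libraries was not tested. The 250 bases before the RefSeq start of each gene (GRCm38.p6) are printed, without Hba-a2, whose promoter was identical to that of Hba-a1 over 297 aligned bases. Capitals mark GATAA (the core bound by GATA factors), CACCC (bound by KLF factors), CCAAT (bound by NF-Y), and ATATAA (as found in a TATA box), searched on both strands, so that a match on the other strand appears as its reverse complement. Side-by-side capitals in Hbb-bt are a reverse and a forward CCAAT that abut, and those in Alas2 are 3 reverse CACCC in a row.
Hba-a1, chr11:32283422-32283671 plus strand: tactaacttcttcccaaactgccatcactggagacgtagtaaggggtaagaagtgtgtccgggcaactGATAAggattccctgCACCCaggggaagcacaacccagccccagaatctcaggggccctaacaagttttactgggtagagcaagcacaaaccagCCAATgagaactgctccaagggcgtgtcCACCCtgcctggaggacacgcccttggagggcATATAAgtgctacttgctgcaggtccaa
Hbb-bs, chr7:103827929-103828178 minus strand: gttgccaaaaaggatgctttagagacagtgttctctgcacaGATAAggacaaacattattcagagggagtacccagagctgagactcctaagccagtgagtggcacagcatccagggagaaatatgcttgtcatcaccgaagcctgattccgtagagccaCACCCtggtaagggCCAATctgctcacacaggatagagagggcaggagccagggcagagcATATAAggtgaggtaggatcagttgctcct
Hbb-bt, chr7:103813924-103814173 minus strand: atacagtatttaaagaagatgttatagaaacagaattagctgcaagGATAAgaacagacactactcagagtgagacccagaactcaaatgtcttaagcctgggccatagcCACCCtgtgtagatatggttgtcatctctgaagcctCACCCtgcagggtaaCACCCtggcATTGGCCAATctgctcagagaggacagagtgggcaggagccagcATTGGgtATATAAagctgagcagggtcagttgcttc
Alas2, chrX:150547167-150547416 plus strand: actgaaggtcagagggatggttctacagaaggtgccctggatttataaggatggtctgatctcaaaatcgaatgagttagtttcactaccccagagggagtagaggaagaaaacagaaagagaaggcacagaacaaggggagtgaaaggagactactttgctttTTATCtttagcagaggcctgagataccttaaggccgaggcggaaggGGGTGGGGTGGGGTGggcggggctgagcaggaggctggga

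GATAA and CACCC each stood in the promoters of all 5 members. Over all 32851 RefSeq mouse promoters of 300 bases (250 before and 50 after the start), GATAA stood in 25.4% and CACCC in 57.5%. CCAAT stood in 4 of 5 members against 37.4% of promoters, and ATATAA in 4 of 5 against 9.82%, with neither in the Alas2 window. In the 4 globin promoters ATATAA began 28 to 31 bases before the start. The promoters of Hbb-bs and Hbb-bt matched at 73.5% of 294 aligned bases, and those of Hba-a1 and Hbb-bs at 56.0% of 277. These matches describe the letters of the windows and were not tested for function.

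Hbb-bs, the major adult beta chain gene in these libraries, had 17264, 9417, 7031 and 15574 normalized reads in WT 1 to 4. In F2_outcross 1 to 4 it had 4120.2, 10179.97, 6369 and 4578. WT 1 and WT 4 stood above every F2_outcross library, but WT 2 and WT 3 were below F2_outcross 2, so the groups overlapped. The means were 12321 ± 4880 in WT and 6312 ± 2755 in F2_outcross (SD, n = 4 each). The log2 fold change of F2_outcross over WT was -0.97 ± 0.31 (SE; 95% interval -1.64 to -0.29), with an unadjusted p of 0.0089 and an adjusted p of 0.108 by limma over all 14390 genes tested, which is not past the threshold of 0.05.

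Hbb-bt, the minor adult beta chain gene here, had 1504, 767, 546 and 1144 normalized reads in WT 1 to 4 and 462, 784, 502 and 328 in F2_outcross 1 to 4. Its libraries fell in the same order as those of Hbb-bs except for the lowest pair, F2_outcross 1 and 4, which changed places. The means were 990.3 ± 422 and 519 ± 192, and the log2 fold change was -0.90 ± 0.30 (95% interval -1.55 to -0.24, adjusted p = 0.121 by limma).

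Hba-a1, which took nearly all reads given to the adult alpha chain, had 4579, 2946, 1915 and 5042 normalized reads in WT 1 to 4 and 1485, 5497, 1931 and 1434 in F2_outcross 1 to 4. Its highest library of all 8 was F2_outcross 2, and the other 3 F2_outcross libraries were close to or below the lowest WT library. The means were 3620.3 ± 1450 and 2587 ± 1953, with a log2 fold change of -0.63 ± 0.40 (95% interval -1.50 to 0.24, adjusted p = 0.394 by limma). Without F2_outcross 2 the log2 fold change was -1.08, with an adjusted p of 0.0880.

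Hba-a2, the second alpha gene, rested on few reads. It had 25, 44, 1 and 140 whole reads in WT 1 to 4 and 0, 25, 4 and 0 in F2_outcross 1 to 4, or 43.5 ± 47.3 and 6.86 ± 11.5 normalized reads. The groups overlapped, and WT 3 stood with the low F2_outcross libraries. Its fitted log2 fold change of -2.72 ± 1.21 (adjusted p = 0.223 by limma) depends on the value added before the logarithm, since 2 libraries were at 0, and is no bound.

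Alas2 had 859, 514, 348 and 656 normalized reads in WT 1 to 4 and 382, 504, 431 and 238 in F2_outcross 1 to 4. WT 3 lay below 3 of the 4 F2_outcross libraries. The means were 594 ± 217 and 389 ± 113, and the log2 fold change was -0.59 ± 0.27 (95% interval -1.17 to 0.00, adjusted p = 0.238 by limma).

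So 0 of the 5 genes passed the threshold by limma, where 2.66% of all 14390 genes tested did. All 5 log2 fold changes were negative, with a median of -0.90, beside -0.01 over all genes tested, of which 51.1% were negative. Unadjusted p was under 0.05 for 3 of 5 (Hba-a2, Hbb-bs and Hbb-bt) by limma and for the same 3 by limma voom on whole reads, and voom also called 0. Over all genes that unadjusted share was 21.1%. In none of the 5 did all WT libraries stand above all F2_outcross libraries, which 5.45% of genes did. In bulk RNA, fewer red cells in a liver and less RNA per red cell cannot be told apart.

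**Figure D1:**
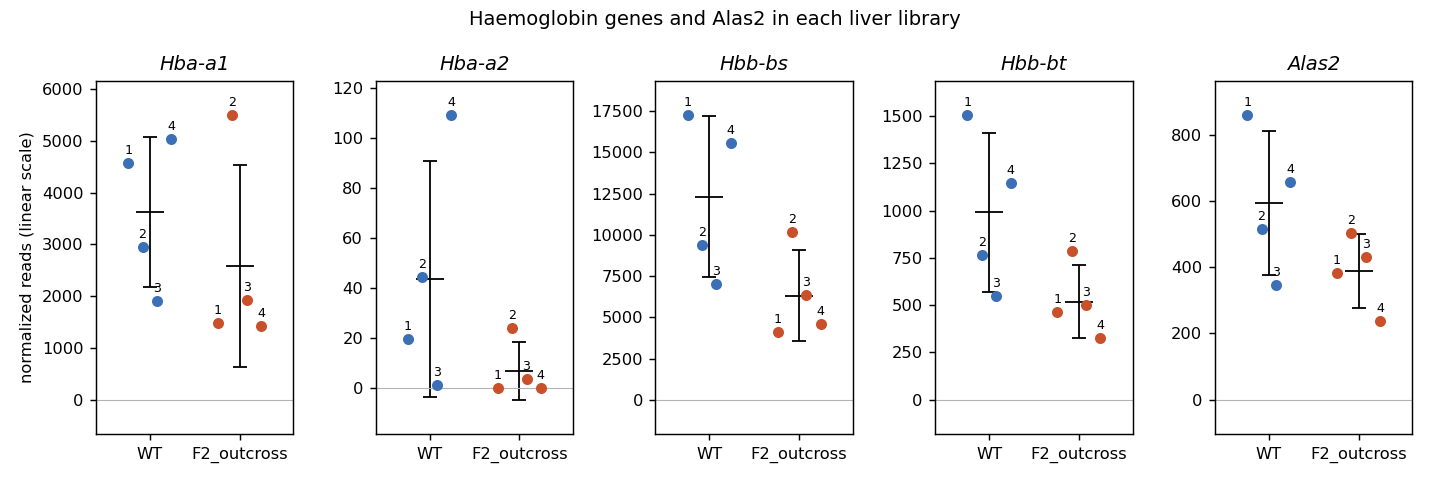
Normalized reads (linear axis, a separate scale per gene) of each haemoglobin gene and Alas2 in the 4 WT and 4 F2_outcross libraries. Points are libraries with their replicate number, and bars are the mean and SD. WT 1 and WT 4 are high and WT 3 is low in the beta genes and Alas2, and F2_outcross 2 is the highest F2_outcross library in all 5 genes.

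Summed, the 4 haemoglobin genes had 23367, 13173, 9493 and 21868 normalized reads in WT 1 to 4 and 6067, 16485, 8806 and 6341 in F2_outcross 1 to 4. As a share of all normalized reads in rows with a symbol, this was 0.0326% to 0.0843% in WT (0.0600% ± 0.0254) and 0.0209% to 0.0550% in F2_outcross (0.0325% ± 0.0160). F2_outcross 2 held more than WT 2 and WT 3, and the lowest WT library, WT 3, held about as much as F2_outcross 3. Haemoglobin thus took under 0.1% of every library. No p is given for the sum, since its genes were chosen with earlier results of these data known.

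Per kilobase of exon, the order of mean levels was the same in both groups: Hbb-bs, Hba-a1, Hbb-bt, Alas2 and Hba-a2. Hbb-bs had 16043 ± 6354 normalized reads per kb in WT and 8219 ± 3588 in F2_outcross. Hba-a1 had 4458 ± 1785 and 3185 ± 2405 normalized reads per kb. Hbb-bs was above Hba-a1 in all 8 libraries, while Hbb-bt, at 1409 ± 601 and 739 ± 273 per kb, stood between Hba-a1 and Alas2. Alas2 had 247 ± 90.2 normalized reads per kb in WT and 162 ± 46.8 in F2_outcross. Alas1, the housekeeping enzyme of the same step, had 5.23 to 17.1 times as much as Alas2 per kb within a library.

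The ratio of alpha to beta genes, per kb, was 0.230, 0.277, 0.238 and 0.291 in WT 1 to 4. In F2_outcross 1 to 4 it was 0.304, 0.474, 0.265 and 0.275. F2_outcross 2 stood above the other 7 libraries, which lay between 0.230 and 0.304. Of the 4 genes' normalized reads, Hbb-bs took 61.8% to 74.1%, Hba-a1 19.6% to 33.3%, Hbb-bt 4.76% to 7.61% and Hba-a2 0% to 0.499%. Alas2 per Hbb-bs was 0.0421 to 0.0546 in WT and 0.0495 to 0.0927 in F2_outcross, highest in F2_outcross 1, which also had the highest Hbb-bt per Hbb-bs (0.112, beside 0.0717 to 0.0871 in the other 7).

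**Figure D2:**
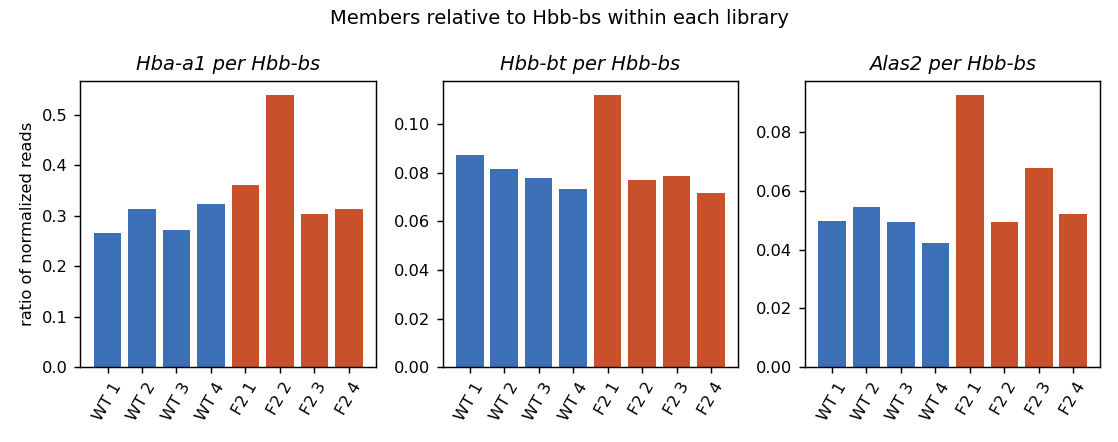
Ratio of normalized reads of Hba-a1, Hbb-bt and Alas2 to those of Hbb-bs in each library (linear axes from 0; blue WT, orange F2_outcross, written F2). F2_outcross 2 is highest for Hba-a1 at 0.540, and F2_outcross 1 is highest for Hbb-bt at 0.112 and for Alas2 at 0.0927.

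Across the 8 libraries the other members followed Hbb-bs. On log2(normalized reads + 1), Pearson's r with Hbb-bs was 0.96 for Hbb-bt (Spearman's rho 0.98), with adjusted p = 0.0032 for r by an exact permutation test over 10 relations. It was 0.92 for Hba-a1 (rho 0.86, adjusted exact permutation p = 0.0086 for r). It was 0.90 for Alas2 (rho 0.86, adjusted exact permutation p = 0.0086) and 0.88 for Hba-a2 (rho 0.80, adjusted exact permutation p = 0.0136 for r and 0.0556 for rho). Without F2_outcross 1 and WT 1, the libraries farthest from the median of Hbb-bs, r was 0.99, 0.91, 0.94 and 0.94. Hbb-bt and Alas2 had an r of 0.97. Reads shared within a pair can raise the r of Hbb-bt with Hbb-bs, whereas alpha genes and Alas2 share no such reads with it. An r over all 8 libraries also takes in the difference between the groups, and all 5 members had a negative log2 fold change. Groups of 4 are too small for an r within each group.

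For 5 genes of white cells and platelets, and for Slc4a1 of the red cell membrane, no relation with Hbb-bs passed the threshold. For S100a8, a calcium-binding protein of neutrophils, r with Hbb-bs was 0.56 (rho 0.48, adjusted exact permutation p = 0.300 for r). For the B cell receptor chain gene Cd79a it was 0.20 and for the T cell receptor chain gene Cd3e 0.28. For Ptprc, the common leucocyte antigen CD45, it was 0.49, for the platelet chemokine gene Ppbp 0.41 and for the red cell anion exchanger gene Slc4a1 0.48. Adjusted exact permutation p lay between 0.300 and 0.625 for r and between 0.334 and 0.703 for rho over these 6. Without the same pair of libraries r was 0.18, -0.12, -0.01, 0.31, 0.12 and -0.23 in that order. The difference between these r and those of the members was not tested.

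**Figure D3:**
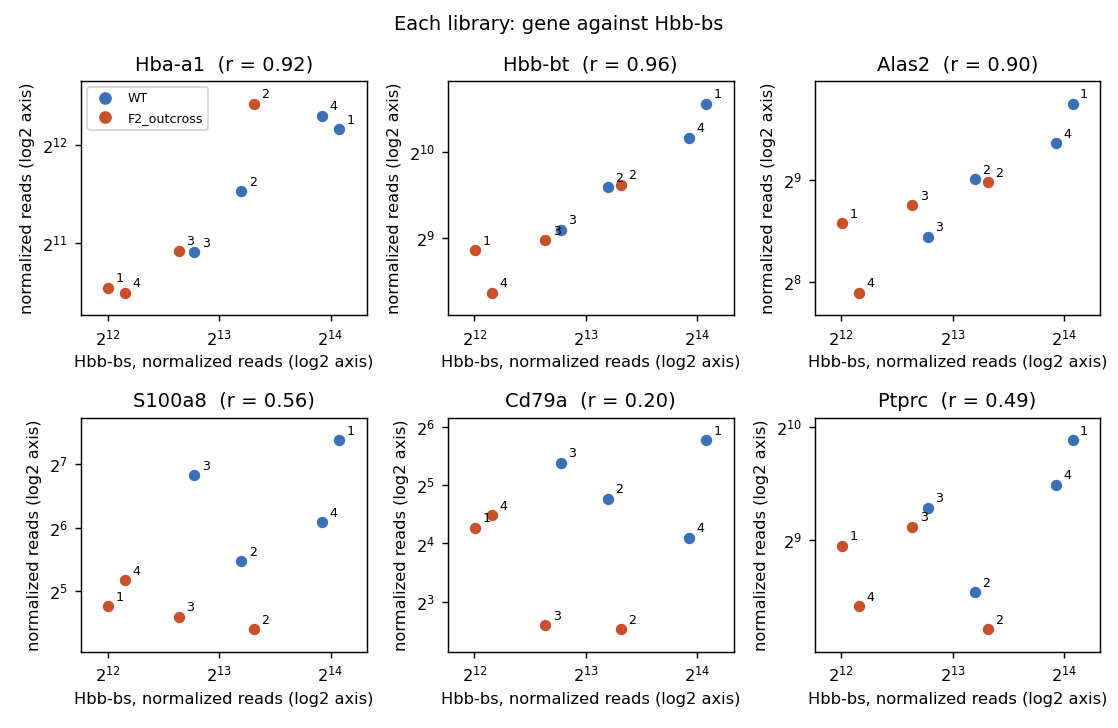
Normalized reads of 6 genes against those of Hbb-bs in each library (both axes log2; blue WT, orange F2_outcross; numbers are replicates; r is Pearson's). Hba-a1, Hbb-bt and Alas2 lie along Hbb-bs with r of 0.90 to 0.96, whereas F2_outcross 2, behind only WT 1 and WT 4 in Hbb-bs, is the lowest library for S100a8, Cd79a and Ptprc.

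By a rule of closest Pearson's r over the 8 libraries, the 10 genes most like Hbb-bs were Hbb-bt (0.96), Trmt61b (0.95), Commd3 (0.94), Mrpl46 (0.94), Rfxap (0.93), Med19 (0.93), Emd (0.93), Psme2b (0.92), Srsf3 (0.92) and Itgb1bp1 (0.92). A predicted gene model or pseudogene that ranked among them was passed over. Hba-a1 ranked 15, Alas2 38 and Hba-a2 67 of 14389 genes. In all, 35 genes (0.243%) had r over 0.9 and 42 had r under -0.9. Apart from Hbb-bt these genes varied far less than Hbb-bs. Commd3, for one, had 1536 to 2176 normalized reads.

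Other genes of the red cell gave no common direction. Of 26 erythroid genes listed, 25 had a row and 11 passed the filter on low values. Of these 11, 0 passed the threshold in either direction by limma, where 2.66% of all genes tested did. An unadjusted p under 0.05 was found for 3 of 11, beside 21.1% of all genes tested. Their median log2 fold change was -0.11, with 6 of 11 negative. Among those with the highest levels, Xpo7, a nuclear exporter used in red cell maturation, had 0.17 ± 0.11 and Slc25a37, the mitochondrial iron importer mitoferrin, 0.39 ± 0.14 (adjusted p = 0.408 and 0.136 by limma). Bpgm, the red cell enzyme that makes 2,3-bisphosphoglycerate, had 784 ± 93.4 normalized reads in WT and 575 ± 52.3 in F2_outcross, with no overlap. Its log2 fold change was -0.44 ± 0.11 with an adjusted p of 0.0610 by limma. The carbonic anhydrase gene Car2 had -0.11 ± 0.22. Many of these genes are also used by liver cells.

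The erythroid genes differed widely in level. Klf1, Tal1 and Epor, regulators and a receptor of red cell precursors named after their values were seen, had 66.9 ± 24.1, 38.9 ± 12.2 and 43.9 ± 10.1 normalized reads in WT and 84.6 ± 19.4, 39.9 ± 9.04 and 30.8 ± 4.54 in F2_outcross. Slc4a1 had 67.0, 2.02, 30.3 and 5.46 normalized reads in WT 1 to 4 and 1.76, 11.5, 6.94 and 6.82 in F2_outcross 1 to 4. Named in the same way, Gata1, Rhag, Rhd, Kel and Tspo2 did not exceed 6 reads in any library, and Trim58 had 0 reads in all 8, which allows up to 3 reads per library. WT 1 and WT 3 were the high libraries for Slc4a1, whereas WT 1 and WT 4 were the high ones for Hbb-bs. Nfe2, a transcription factor of erythroid cells and platelet precursors that was also named after its values were seen, had 60.1 ± 14.0 and 29.3 ± 7.31 with no overlap, a log2 fold change of -1.01 ± 0.26 and an adjusted p of 0.0593 by limma. Of 6 embryonic and theta globin genes listed, 2 had a row, Hbq1a and Hbq1b, and neither exceeded 6 reads in a library.

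The 10 haem synthesis genes had a median log2 fold change of -0.12, and 0 passed the threshold by limma. An unadjusted p under 0.05 was found for 1 of them, beside 21.1% of all genes tested. Alas1 had -0.38 ± 0.29, and Alad, the enzyme of the following step, -0.40 ± 0.16 with an adjusted p of 0.173 by limma. Cpox and Fech, the coproporphyrinogen oxidase and the ferrochelatase that inserts iron, had 0.08 ± 0.15 and -0.09 ± 0.12. The 10 genes of haem and haemoglobin scavenging and breakdown had a median of -0.14, with 0 past the threshold. Of these 10, 2 had an unadjusted p under 0.05, against the same 21.1%. Haptoglobin (Hp), which binds free haemoglobin, had 0.25 ± 0.25. Haemopexin (Hpx), which binds free haem, had -0.14 ± 0.26. The receptor gene Lrp1 and the enzyme gene Hmox1 of the same list had 0.11 ± 0.15 and -0.12 ± 0.13.

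Platelet genes were low. Of 12 listed, 3 passed the filter, and 0 of them passed the threshold or had an unadjusted p under 0.05 by limma. Over all genes tested these shares were 2.66% and 21.1%. The integrin gene Itga2b had -0.11 ± 0.17, the adhesion receptor gene Selp -0.17 ± 0.38 and the platelet chemokine gene Pf4 -0.25 ± 0.33.

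White cell genes are the other transcripts that blood brings to a liver extract, although leucocytes also reside in the tissue. Of 58 genes in 5 leucocyte lists, 48 passed the filter. Of these, 7 were lower in F2_outcross past the threshold (14.6%, beside 1.06% of all genes tested) and 0 were higher (beside 1.6%). The median log2 fold change was -0.87, 44 were negative and 37 had an unadjusted p under 0.05 (21.1% of all genes tested did, in either direction). All WT libraries stood above all F2_outcross libraries for 14, beside 5.45% of all genes. The lists and their direction were known from earlier results of these data and are not independent evidence.

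S100a8, of neutrophils, fell by 1.67 ± 0.35 on the log2 scale, from 98.0 ± 53.6 to 27.2 ± 6.44 normalized reads (adjusted p = 0.0313 by limma). It had 166, 44.5, 114 and 67.9 in WT 1 to 4 and 27.2, 21.1, 24.3 and 36.1 in F2_outcross 1 to 4, with no overlap. Its partner S100a9 had -1.29 ± 0.41 with an adjusted p of 0.107. Of B cell genes, the immunoglobulin heavy chain genes Ighm and Ighd fell, with log2 fold changes of -1.11 ± 0.24 and -1.64 ± 0.37 (adjusted p = 0.0333 and 0.0377 by limma). Of granule genes of natural killer and T cells, Nkg7 and Gzma fell, with -1.10 ± 0.26 and -1.42 ± 0.30 (adjusted p = 0.0438 and 0.0304). Prf1, a granule gene of the same list named after its values were seen, had 0.03 ± 0.51. In that list 13 of 14 tested genes were negative. Laptm5 and Vav1, used across leucocytes, fell by 0.63 ± 0.13 and 0.84 ± 0.19 (adjusted p = 0.0315 and 0.0375). All 10 genes of that list were negative. Its gene with the highest level, Lcp1, had -0.11 ± 0.09, and Ptprc had -0.62 ± 0.26 (adjusted p = 0.489 and 0.202 by limma). In the 9 monocyte genes 0 passed, with a median of -0.80 and 5 unadjusted p under 0.05, and Plac8 had -0.85 ± 0.28.

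These 7 calls depended on single libraries. Leaving out WT 1, WT 3, F2_outcross 1 or F2_outcross 2 left 0 calls among the 48 genes, leaving out WT 4 left 1, leaving out F2_outcross 4 left 4 and leaving out WT 2 gave 25. The count over all genes moved too, from 383 to 111 to 142 in the fits with 0 or 1 such call, to 279 without F2_outcross 4 and to 1073 without WT 2. Each gene lost its call in 5 or 6 of the 8 fits.

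The libraries high in haemoglobin were not in each case those high in white cell genes. The summed B cell genes had 995, 461, 629.6 and 539.8 normalized reads in WT 1 to 4 and 303, 211, 206 and 431 in F2_outcross 1 to 4. The summed neutrophil genes had 688, 206, 649 and 266 in WT and 177, 126, 191 and 199 in F2_outcross. The summed T and natural killer cell genes had 1034, 398, 673 and 631 in WT and 363, 281, 389 and 318 in F2_outcross. The summed monocyte genes had 1086, 493, 697 and 796 in WT and 557, 416, 514 and 449 in F2_outcross, and the summed genes used across leucocytes had 8859, 5767, 6956 and 6797 in WT and 5264, 4897, 5704 and 5058 in F2_outcross. WT 1 was highest for haemoglobin and for all 5 lists. WT 3, the lowest WT library for haemoglobin, was second in 4 lists, whereas in the monocyte list WT 4, which was high in haemoglobin, was second. F2_outcross 2, exceeded for haemoglobin only by WT 1 and WT 4, was lowest for 4 of the lists and second lowest for the B cell list.

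Set against Hbb-bs within each library, none of these 6 genes had a group difference past the threshold. The mean log2 ratio to Hbb-bs differed between F2_outcross and WT by -0.70 for S100a8 (adjusted p = 0.720, exact permutation, two-sided, over 70 assignments and 6 genes), and 3 of 4 F2_outcross libraries lay below the WT mean. It differed by -0.47 for Cd79a, 0.40 for Cd3e, 0.34 for Ptprc, 0.54 for Ppbp and -0.10 for Slc4a1 (adjusted exact permutation p = 0.720 to 0.943). All groups overlapped, and leaving out 1 library moved these differences by over 1.5 times. Among them, Cd3e had 0.09 to 0.83 and Ptprc 0.08 to 0.76, and with the summed alpha genes as reference they had 0.07 and 0.02. The smallest unadjusted p that 4 against 4 allows is 0.0286, so that a single gene could not pass on its own after adjustment over 6. Per 1000 Hbb-bs reads, S100a8 had 4.36 to 16.2 in WT and 2.07 to 7.88 in F2_outcross, and Ptprc had 39.6 to 89.0 and 29.1 to 120.2.

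With log2 Hbb-bs added as a second term of the limma fit, the group coefficient is read at equal Hbb-bs. The 48 leucocyte genes then had a median log2 fold change of -0.84, beside -0.87 without the term, and 45 were negative. None passed the threshold (6 genes, or 0.0417%, did so in the lower direction over the whole table), and 20 had an unadjusted p under 0.05, where 4.27% of all genes were lower at that level. The median SE over all genes was 0.207 with the term and 0.150 without. By list, the median moved from -1.29 to -1.09 for neutrophil genes, from -0.80 to -0.59 for monocyte genes, from -1.41 to -1.47 for B cell genes, from -0.90 to -0.81 for T and natural killer cell genes and from -0.63 to -0.52 for genes used across leucocytes.

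**Figure D4:**
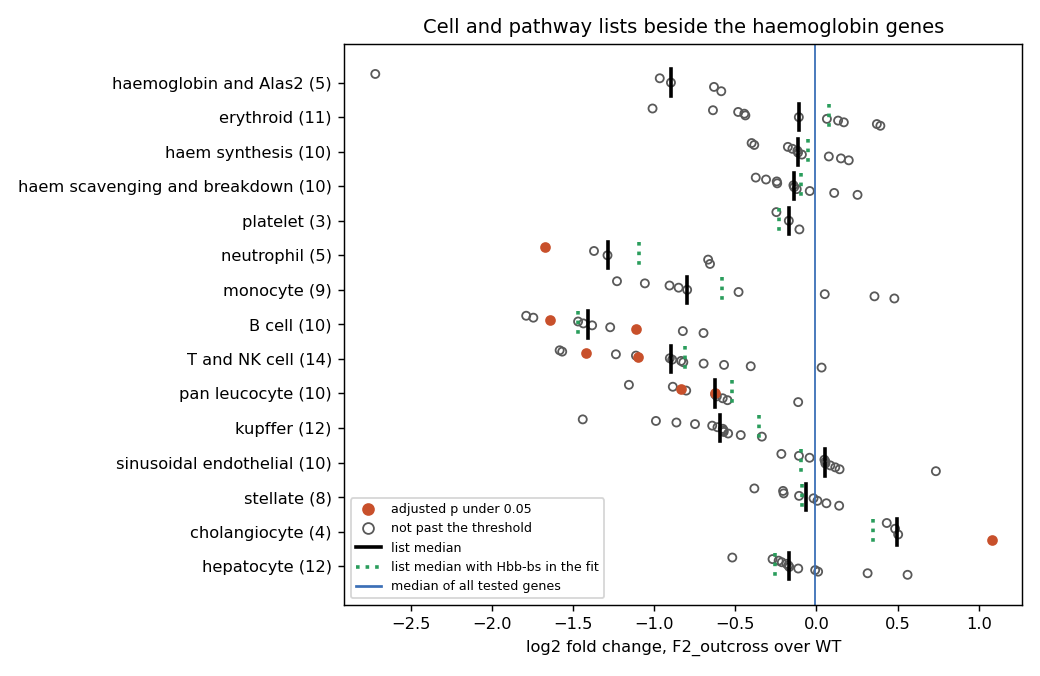
Log2 fold change (F2_outcross over WT, n = 4 each) of each tested gene in the lists named on the left, with the number tested in brackets. Filled points passed an adjusted p of 0.05, black bars are list medians, green dotted bars the medians with Hbb-bs as a second term (not drawn for the members) and the blue line the median of all tested genes; the B cell median lies at -1.41 without and -1.47 with the term.

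Kupffer cells, which live in the sinusoids and take up old red cells, had 12 of 12 markers with a negative log2 fold change. None passed the threshold by limma, 11 had an unadjusted p under 0.05 (beside 21.1% of all genes in either direction), and the median was -0.59, or -0.35 with Hbb-bs in the fit. The markers with the highest levels, Slc40a1 (the iron exporter ferroportin), the lectin gene Clec4f, Cd5l and the complement gene C1qa, had -0.34 ± 0.11, -0.54 ± 0.19, -0.86 ± 0.23 and -0.58 ± 0.19 (adjusted p = 0.113, 0.125, 0.0639 and 0.121 by limma). Without WT 2, 11 passed, in a fit that called 1073 genes in all where 383 were called with all libraries. The summed Kupffer list was highest in WT 1 (57228) and lowest in F2_outcross 4 (26580.4), and F2_outcross 2 had 26801. The other resident cells had medians of 0.06 for 10 sinusoidal endothelial genes, -0.06 for 8 stellate genes and -0.17 for 12 hepatocyte genes, and 0 of these passed by limma (1, 0 and 3 had an unadjusted p under 0.05). Of 4 cholangiocyte genes tested, 1 rose past the threshold, beside 1.6% of all genes tested. It was Spp1, which encodes osteopontin, with 1.08 ± 0.21 (adjusted p = 0.0247 by limma), and the list median was 0.49. Whether the blood in the tissue had a part in the white cell differences was not tested.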

How the data were processed

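Per the labels' protocols, liver RNA of 8 female mice (4 WT, 4 F2_outcross) was extracted (Qiagen RNeasy Lipid Tissue) and made into directional libraries. Tools named without versions or roles in the submitters' processing notes are cutadapt, HISAT2 and DESeq2, and the build is GRCm38. Which counter was used, and with which strand setting, is not given in the sources used here. The deposited table holds log2 values that the authors made: its lowest value is log2 of 0.1, and 2 raised to each value, minus 0.1, was a whole multiple of 1 step per library for 100% of values within 0.001 reads. These steps gave the whole reads. The design had assumed linear normalized values, so the log2 values were returned to that scale. Of 25069 rows, 395 had no symbol, took 0.611% to 1.22% of reads and were left out, and 0 sample columns were unused. No pair of libraries matched within sampling noise (chi-square per degree of freedom 39.5 or more).

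The 14390 genes that reached 10 normalized reads in 4 or more libraries were fitted as log2(normalized reads + 1) with limma 3.58.1 in R 4.3.3. The fit (lmFit, eBayes with trend, two-sided, Benjamini-Hochberg over all genes, threshold 0.05) had group as the only term. It was run on simulated data in which all genes varied independently and by the same rule. That check does not cover genes that rise and fall together, as the members did. Unless a sentence names another test, adjusted p-values come from this limma fit. Adding 1 understates changes of low genes. Errors of normalized reads are SDs and those of log2 fold changes SEs. Permutation tests used scipy 1.17.1 and numpy 2.4.6 in Python 3.11.15, and promoters were aligned with Biopython 1.88. Lengths and places came from GENCODE M21 and promoters from RefSeq, where all 5 members matched. Read counts and floors cover counting error only.

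The members, the lists and the tests were chosen with earlier results of these data known. Named genes are the members, the list genes past the threshold with up to 4 others of highest mean, and the 10 genes most like Hbb-bs. Alternatives were trimmed-mean (own implementation), upper quartile and haemoglobin-free scaling, pseudocounts of 0.5 and 5, no filter, a mean of at least 50, robust moderation, voom, a threshold of 0.10, Hbb-bs as a term, alpha genes as reference, and leaving out each library.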

Additional observations from a re-analysis of the deposited data

Results flagged for a closer look

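Among 50 groups of 4 libraries examined for a library standing apart (Dixon's test at its critical value for 95%), 3 had one, and chance gives about 1 in 20. All 3 were F2_outcross 2 in alpha globin, and the alpha sum repeats the reads of Hba-a1 and Hba-a2, so they are not independent. Hba-a1 had 5497 normalized reads there, and the next F2_outcross library had 1931. Hba-a2 had 23.97 there, and the next had 3.47. The alpha genes summed to 5521 there, and the next library had 1935. The beta genes of F2_outcross 2 (10964) were also the highest of its group but were not set apart by the test.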

How the results depend on the processing

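The count of members past the threshold was 0 in every setting run. All 5 log2 fold changes stayed negative in the settings that kept group as the only term. With Hbb-bs as a term, which leaves no value for Hbb-bs itself, they were 0.57 for Hba-a1 (unadjusted p = 0.021, adjusted p = 0.431 by limma), 0.40 for Hba-a2, 0.12 for Alas2 and -0.02 for Hbb-bt. Hba-a2 could not be tested with a mean of at least 50 normalized reads. Leaving out each library in turn, the log2 fold change ranged from -1.08 to -0.43 for Hba-a1, from -3.85 to -1.93 for Hba-a2, from -1.23 to -0.77 for Hbb-bs (adjusted p 0.0680 to 0.273), from -1.15 to -0.66 for Hbb-bt and from -0.82 to -0.37 for Alas2. Over the other settings that of Hbb-bs ranged from -1.003 to -0.957. The count of leucocyte genes lower in F2_outcross, 7, was 3 with voom, 18 at a threshold of 0.10 and 0 with Hbb-bs as a term, and 0 to 25 on leaving out each library. That of Kupffer genes, 0, was 4 at a threshold of 0.10, and 0 to 11 on leaving out each library. The count over all genes, 383, was 248 with voom, 1073 at a threshold of 0.10 and 27 with Hbb-bs as a term, and 111 to 1073 on leaving out each library. The split of 230 higher and 153 lower became 198 and 208 under upper quartile scaling. No scaling moved the median log2 fold change of all genes by more than 0.04. The ratio difference of Slc4a1, -0.10, ranged from -0.75 to 0.51 on leaving out each library, turning positive without WT 1, WT 3 or F2_outcross 1, and that of Cd79a, -0.47, from -0.91 to 0.078, turning positive without F2_outcross 2. Over the same fits the ratio difference ranged from -0.97 to -0.34 for S100a8, from 0.09 to 0.83 for Cd3e, from 0.08 to 0.76 for Ptprc and from 0.11 to 0.89 for Ppbp. With the summed alpha genes as reference it was -1.03 for S100a8, -0.79 for Cd79a, 0.07 for Cd3e, 0.02 for Ptprc, 0.22 for Ppbp and -0.43 for Slc4a1. Without the pair of libraries farthest from the median of Hbb-bs, r turned negative for Cd79a (-0.12), Cd3e (-0.011) and Slc4a1 (-0.23). The cause of these changes was not tested, and in each leave-one-out fit there are fewer libraries. Set against the values reported, 209 values under other settings kept their direction and side of the threshold, 22 counts moved by over 1.5 times and 7 values turned direction. No paired analysis was possible because the labels give the groups no shared replicate numbers. Hba-a2, Slc4a1 and the platelet genes rest on few reads, which limits their precision.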
